A study of Homo sapiens with 4 samples.

Results

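The genes described here are 36 genes of the unfolded protein response (UPR) of the endoplasmic reticulum (ER), among 58884 Ensembl genes in the deposited table. They cover the ATF6 and XBP1 branch, ER folding and ER-associated degradation. They were chosen by name, and all 36 symbols were matched to 1 identifier each. Total RNA of 4 libraries, 1 for each group, was sequenced on an Illumina platform. The groups were 8505C cells transfected to overexpress CRABP1, 8505C cells with empty vector, FTC-133 cells transfected to overexpress CRABP1, and FTC-133 cells with empty vector. 8505C is a human anaplastic thyroid carcinoma line and FTC-133 a human follicular thyroid carcinoma line. CRABP1 is a cytoplasmic protein that binds retinoic acid, and the design sets cells with more of it against cells with empty vector. Whether the transfected cells were clones or pools, and how long they carried the vectors, is not given in the sources used here.

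The ER folds secreted and membrane proteins. When unfolded protein builds up, the chaperone HSPA5 (BiP) leaves the membrane sensors ATF6, IRE1 (encoded by ERN1) and PERK (encoded by EIF2AK3). ATF6 is then cut by Golgi proteases to a transcription factor, and IRE1 removes an intron from XBP1 RNA so that an active XBP1 protein is made. Both factors raise chaperones, disulfide isomerases and degradation genes through ER stress elements in their promoters, whereas PERK slows translation and raises ATF4 and CHOP. Thyrocytes depend on this machinery because they secrete large amounts of thyroglobulin. Gene-level values do not tell the spliced from the unspliced form of XBP1 RNA, and ATF6 is controlled largely as protein.

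The ER stress elements are shown as a description of these genes. The choice by name took the ATF6 and XBP1 branch, whose factors act through such elements. The shares below are therefore not independent of the choice. RefSeq promoter windows of GRCh38.p14, from 250 bases before to 50 bases after the annotated start, were found for 33 of the 36 genes; DERL1, DERL3 and SEC24D had no entry. The search covered both strands for ERSE, which is CCAAT, then any 9 bases, then CCACG; for ERSE-II, which is ATTGG, then any 1 base, then CCACG; and for the XBP1-bound element UPRE, written TGACGTGG. ERSE was found in 5 of the 33 windows (15.2%), against 22 of 27305 windows of all genes (0.0806%). ERSE-II was found in 3 of the 33 (9.09%), against 15 of 27305 (0.0549%). UPRE was found in 1 of the 33 (3.03%), against 217 of 27305 (0.795%). Together, 8 of the 37 windows, over all genes, that held ERSE or ERSE-II belonged to these genes. Capitals mark the fixed letters, and each element is written 5′ to 3′ on the strand where it matched:
HSPA5 ERSE, gene strand: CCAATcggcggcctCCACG
HSP90B1 ERSE, gene strand: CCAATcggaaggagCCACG
HSP90B1 ERSE, opposite strand: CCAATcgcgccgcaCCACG
XBP1 ERSE, gene strand: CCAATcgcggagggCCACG
CRELD2 ERSE, opposite strand: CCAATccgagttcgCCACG
SERP1 ERSE, opposite strand: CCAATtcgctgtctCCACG
HERPUD1 ERSE-II, gene strand: ATTGGgCCACG
SDF2L1 ERSE-II, opposite strand: ATTGGtCCACG
HYOU1 ERSE-II, opposite strand, 2 copies: ATTGGaCCACG

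Whole windows are shown for the 3 genes with an element and the largest absolute mean log2 ratio of CRABP1 over vector. They run 5′ to 3′ on the gene's strand, with ERSE-II and UPRE in capitals, so that an element on the opposite strand reads as its reverse complement. In HYOU1 the distal ERSE-II overlaps the UPRE, and the capitals there cover both. The windows lie on GRCh38.p14 at chr16:56931892-56932191 (plus strand) for HERPUD1, chr22:21642052-21642351 (plus strand) for SDF2L1 and chr11:119057156-119057455 (minus strand) for HYOU1:
HERPUD1: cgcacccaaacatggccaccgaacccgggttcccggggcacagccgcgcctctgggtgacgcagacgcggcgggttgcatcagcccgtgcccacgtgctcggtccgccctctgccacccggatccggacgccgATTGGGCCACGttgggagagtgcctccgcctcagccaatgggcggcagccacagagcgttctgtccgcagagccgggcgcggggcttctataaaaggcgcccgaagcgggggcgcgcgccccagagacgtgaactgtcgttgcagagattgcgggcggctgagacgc
SDF2L1: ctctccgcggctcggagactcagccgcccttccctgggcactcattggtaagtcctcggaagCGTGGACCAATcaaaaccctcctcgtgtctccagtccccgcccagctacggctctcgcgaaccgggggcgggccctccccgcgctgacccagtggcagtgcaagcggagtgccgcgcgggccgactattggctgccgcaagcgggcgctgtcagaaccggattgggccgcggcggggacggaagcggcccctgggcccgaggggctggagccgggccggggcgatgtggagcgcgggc
HYOU1: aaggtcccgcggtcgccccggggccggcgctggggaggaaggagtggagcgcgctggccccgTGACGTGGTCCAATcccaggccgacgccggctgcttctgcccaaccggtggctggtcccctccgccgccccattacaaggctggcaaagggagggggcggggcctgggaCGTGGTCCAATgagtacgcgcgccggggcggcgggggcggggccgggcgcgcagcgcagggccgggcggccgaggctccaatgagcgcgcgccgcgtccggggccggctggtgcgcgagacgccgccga

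**Figure D1:**
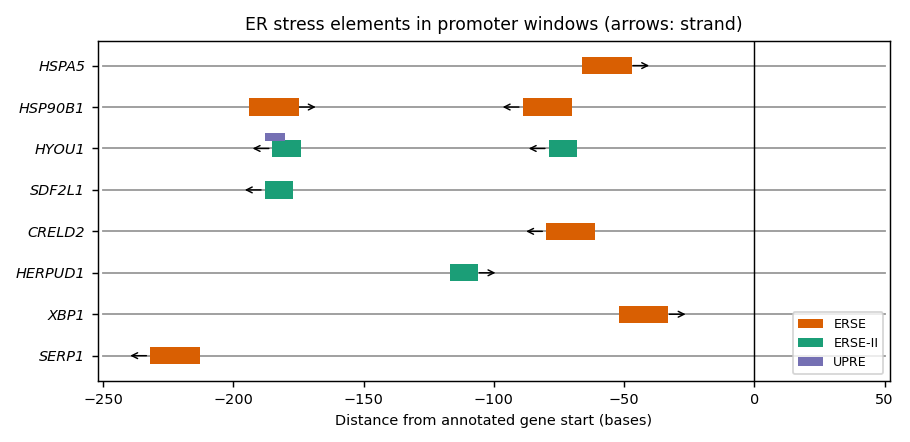
Positions of ERSE, ERSE-II and UPRE matches in the promoter windows of the 8 genes that held ERSE or ERSE-II. The x axis gives the distance from the annotated start in bases, bars span the matched letters, and arrows give the strand of each ERSE or ERSE-II. All matches lie upstream of the start, and those of HSPA5 and XBP1 begin 66 and 52 bases before it.

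The deposited values are TPM, in which read numbers are corrected for gene length and each library is brought to 1 common sum. From 19174564 to 20331458 reads lay behind the libraries, recovered from the spacing of low values. CRABP1 reached 537 TPM in 8505C with CRABP1 and 385 TPM in FTC-133 with CRABP1, and was listed at 0 in both vector libraries, where 3 reads would be 0.594 TPM in 8505C and 0.555 TPM in FTC-133. The 37 mitochondrially encoded genes held between 25.9% and 28.6% of the TPM. Of 4 thyroid transcription factors, NKX2-1 and HHEX were at 8.45 TPM or more in all libraries, while PAX8 and FOXE1 were at or below 0.240 TPM in 8505C. The thyroid genes TG, TSHR and SLC5A5 were below 1 TPM in all libraries, with SLC5A5 at 0 throughout. Of 5 epithelial markers the keratins KRT8 and KRT18 were at 73.6 TPM or more, whereas KRT19, EPCAM and CDH1 were at or below 1.54, 6.13 and 0.241 TPM. Summed over 5 leukocyte markers the level was 28.9 and 56.8 TPM in 8505C and 0.582 and 0.774 TPM in FTC-133, with CRABP1 and with vector. In 8505C nearly all of it was CD14, and PTPRC stayed at or below 0.194 TPM in every library. The 4 endothelial markers summed to 100 and 108 TPM in 8505C, nearly all CDH5, and to 5.02 and 4.61 TPM in FTC-133. The 5 fibroblast markers summed to 71.9 and 55.0 TPM in 8505C and to 352 and 614 TPM in FTC-133. The part of these markers in any difference below was not tested. Levels are shares of a library, so fewer cells of a kind and less RNA per cell cannot be told apart.

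Most of the genes were well expressed, with a median of 68.4 TPM in 8505C with CRABP1, 67.6 TPM in 8505C with vector, 66.5 TPM in FTC-133 with CRABP1 and 72.4 TPM in FTC-133 with vector. The median of 12922 protein-coding genes of at least 1 TPM on average lay between 18.9 and 21.8 TPM. Highest in every library was HSPA5, the main ER chaperone, followed by HSP90B1 (GRP94), the ER form of HSP90. Summed over all 36 genes the level was 4307 and 4445 TPM in 8505C and 5297 and 5424 TPM in FTC-133, with CRABP1 and with vector. The sum was therefore 0.969 times that of vector in 8505C and 0.977 times that of vector in FTC-133, differences of a few percent with no replicate to set them against. Of the TPM outside mitochondrially encoded genes, the set held 0.581% and 0.604% in 8505C, with CRABP1 and with vector. In FTC-133 it held 0.715% and 0.759%, a larger difference than on all TPM.

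**Figure D2:**
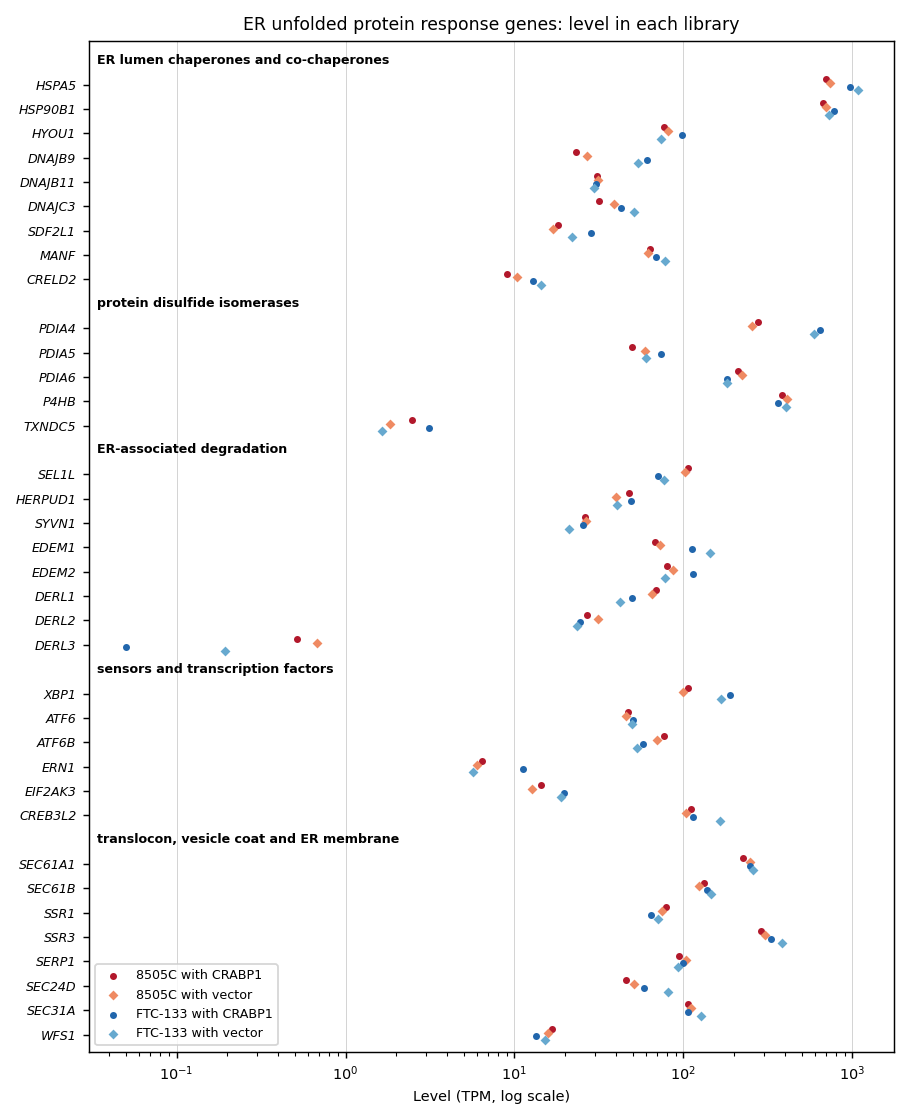
Level of each of the 36 genes in the 4 libraries, in TPM on a log axis, grouped by role; circles are CRABP1 libraries and diamonds vector libraries. HSPA5 lies between 693 and 1077 TPM, and DERL3 is below 1 TPM in all 4 libraries.

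In neither line was a gene of this set 2-fold higher or lower with CRABP1. Each group had a single library, so a line has no replicate error. Genes were therefore set against a 2-fold rule on log2 of TPM plus a pseudocount of 1, and plain TPM ratios were given 95% Clopper-Pearson intervals that cover counting error only. In 8505C, 0 of 35 measured genes passed 2-fold, where 7.77% of all 17561 genes of at least 1 TPM did (3.70% higher and 4.07% lower), and 0.741% of 12011 protein-coding genes of 20 or more reads. In FTC-133 the count was also 0 of 35, where 10.9% of all 19899 genes did (6.02% higher and 4.92% lower), and 3.52% of 12769 such protein-coding genes. At 1.5-fold the counts were 0 of 35 in 8505C, against 3.80% of protein-coding genes (1.68% higher and 2.12% lower), and 2 of 35 in FTC-133 (ERN1 and TXNDC5, both higher), against 11.5% (6.93% higher and 4.58% lower). DERL3, a degradation factor, was below the level needed in both lines.

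Exon bases are shared with another gene, on either strand, over at least 10% of the length for DNAJB11, PDIA5, PDIA6, TXNDC5, SYVN1, EIF2AK3 and DERL3, and their levels are uncertain to that extent.

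The plain ratios of CRABP1 over vector ran from 0.809 to 1.35 in 8505C and from 0.697 to 2.00 in FTC-133. Between 0.8 and 1.25 lay 34 of the 35 genes in 8505C and 27 of the 35 in FTC-133. The share of all genes in this range was not counted. The median absolute log2 ratio was 0.091 in 8505C, beside 0.127 over protein-coding genes of 20 or more reads. In FTC-133 it was 0.171, beside 0.195. The median log2 ratio was -0.03 over the 35 genes in 8505C, beside 0.02 over protein-coding genes of 20 or more reads. In FTC-133 it was 0.04, beside 0.06. The FTC-133 median changed sign, to -0.023, with median-ratio scaling, which centres the libraries on their shared genes, so its direction depends on the scaling.

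Chaperones and their helpers had ratios near 1, most of them lower with CRABP1 in 8505C but not in FTC-133. Of the 9 genes 2 were above 0 on the log2 scale in 8505C and 5 in FTC-133. Of protein-coding genes of 20 or more reads 54.8% and 58.1% were. HSPA5 was at 693 TPM in 8505C with CRABP1 and 736 TPM with vector, and at 965 TPM in FTC-133 with CRABP1 and 1077 TPM with vector. The CRABP1 library was thus the lower one in both lines, with ratios of 0.942 (0.921 to 0.965) in 8505C and 0.897 (0.880 to 0.914) in FTC-133. HSP90B1 was at 667 and 699 TPM in 8505C and at 777 and 725 TPM in FTC-133, with CRABP1 and with vector. It was lower with CRABP1 in 8505C, at a ratio of 0.954 (0.933 to 0.975), and higher in FTC-133, at 1.07 (1.05 to 1.09).

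HYOU1 (GRP170), an exchange factor and chaperone that works with HSPA5, was the chaperone furthest above vector in FTC-133. Its level there was 98.6 TPM with CRABP1 and 73.8 TPM with vector, a ratio of 1.34 (1.27 to 1.40). In 8505C it was at 77.0 TPM with CRABP1 and 80.6 TPM with vector, and the interval of the ratio (0.908 to 1.005) includes 1. With median-ratio scaling that interval lay below 1 (0.894 to 0.989). SDF2L1, which works with HSPA5 co-chaperones, was at 28.5 and 21.9 TPM in FTC-133, with CRABP1 and with vector, a ratio of 1.30 (1.03 to 1.65), whose interval included 1 with median-ratio scaling. In 8505C it was at 18.1 and 16.9 TPM, with an interval (0.806 to 1.44) that includes 1. Both genes carry ERSE-II, as printed above. Of the 8 genes with ERSE or ERSE-II, 6 were above 0 on the log2 scale in FTC-133 and 3 in 8505C. Of protein-coding genes of 20 or more reads 58.1% were in FTC-133 and 54.8% in 8505C. The part of the elements in these ratios was not tested.

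DNAJC3 (p58IPK), a co-chaperone that also inhibits PERK, was lower with CRABP1 in both lines. It was at 31.6 and 39.1 TPM in 8505C and at 42.6 and 50.7 TPM in FTC-133, with CRABP1 and with vector. The ratios were 0.809 (0.740 to 0.884) in 8505C and 0.842 (0.781 to 0.907) in FTC-133. DNAJB9 (ERdj4), a co-chaperone that returns HSPA5 to IRE1, went opposite ways, at 23.0 and 27.0 TPM in 8505C (ratio 0.853, 0.735 to 0.991) and 61.1 and 54.1 TPM in FTC-133 (ratio 1.13, 1.03 to 1.24). The remaining members of this role were DNAJB11, MANF and CRELD2. DNAJB11, an HSPA5 co-chaperone, had intervals that include 1 in both lines, as did CRELD2, a secreted ER stress protein. The CRELD2 interval in FTC-133 lay below 1 with median-ratio scaling (0.740 to 0.991). MANF, an ER-resident stress protein, had a ratio of 1.03 (0.926 to 1.14) in 8505C and 0.887 (0.809 to 0.972) in FTC-133.

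The disulfide isomerases form and rearrange disulfide bonds. PDIA4 (ERp72) was higher with CRABP1 by nearly the same ratio in both lines, 1.08 (1.04 to 1.13) in 8505C and 1.09 (1.06 to 1.12) in FTC-133. Its levels were 277 and 255 TPM in 8505C and 645 and 593 TPM in FTC-133, with CRABP1 and with vector. P4HB, the founding disulfide isomerase and a subunit of collagen prolyl hydroxylase, was lower in both, at 0.941 (0.916 to 0.966) in 8505C and 0.900 (0.876 to 0.924) in FTC-133. PDIA6 was at 209 and 221 TPM in 8505C, a ratio of 0.944 (0.906 to 0.984), and at 182 TPM in both FTC-133 libraries. Its FTC-133 interval lay below 1 with median-ratio scaling (0.915 to 0.9996).

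PDIA5 split the lines. It was at 49.5 TPM with CRABP1 and 59.2 TPM with vector in 8505C (ratio 0.836, 0.768 to 0.910), and at 73.5 TPM with CRABP1 and 60.2 TPM with vector in FTC-133 (ratio 1.22, 1.13 to 1.32). The vector libraries were close to each other, and the CRABP1 libraries lay on either side of them. PDIA5 shares 12.2% of its exon bases with SEC22A.

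TXNDC5 (ERp46) stood out by its low level of 2.47 and 1.84 TPM in 8505C and 3.11 and 1.63 TPM in FTC-133, with CRABP1 and with vector. Behind these values lay about 55, 41, 72 and 39 reads, in that order. In GENCODE 29, 60.6% of its exon bases also belong to the readthrough gene BLOC1S5-TXNDC5, which was listed at 0 in all 4 libraries. How reads in shared exons were counted is not given in the sources used here, so the level is uncertain. The ratio was 1.35 (0.882 to 2.07) in 8505C and 1.90 (1.27 to 2.89) in FTC-133.

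ER-associated degradation returns misfolded proteins to the cytosol. HERPUD1, a membrane protein that assembles the degradation complex, was higher with CRABP1 in both lines. It was at 47.4 and 39.8 TPM in 8505C and at 49.2 and 40.5 TPM in FTC-133, with CRABP1 and with vector. Both CRABP1 libraries were above both vector libraries, at ratios of 1.19 (1.10 to 1.29) in 8505C and 1.21 (1.12 to 1.31) in FTC-133. DERL1, a channel component, was also higher in both, at 1.06 (1.003 to 1.12) in 8505C and 1.18 (1.11 to 1.26) in FTC-133, but the 8505C interval included 1 with median-ratio scaling.

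EDEM1 and EDEM2, mannosidase-like proteins that mark glycoproteins for degradation, went apart in FTC-133. EDEM1 was at 113 TPM with CRABP1 and 144 TPM with vector there, a ratio of 0.781 (0.749 to 0.814). EDEM2 was at 114 TPM with CRABP1 and 77.9 TPM with vector, a ratio of 1.46 (1.34 to 1.60). In 8505C both were slightly lower with CRABP1, at 0.935 (0.883 to 0.989) for EDEM1 and 0.916 (0.830 to 1.01) for EDEM2. The EDEM2 interval there lay below 1 with median-ratio scaling (0.817 to 0.995).

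The ubiquitin ligase SYVN1 (HRD1) and its partner SEL1L differed as well. SYVN1 was at 25.4 and 21.2 TPM in FTC-133, with CRABP1 and with vector, a ratio of 1.20 (1.08 to 1.34), and its ratio in 8505C was 0.980 (0.884 to 1.09). It shares 7.24% of its exon bases, on the same strand, with FAU. FAU was at 234 and 273 TPM in 8505C and 212 and 181 TPM in FTC-133, with CRABP1 and with vector. The part of shared reads in the SYVN1 values was not tested. SEL1L had a ratio of 1.03 (0.993 to 1.07) in 8505C and 0.933 (0.892 to 0.977) in FTC-133. DERL2, a relative of DERL1, was lower with CRABP1 in 8505C, at 0.854 (0.779 to 0.936), with an interval including 1 in FTC-133. DERL3 rested on about 10, 13, 1 and 4 reads in 8505C with CRABP1, 8505C with vector, FTC-133 with CRABP1 and FTC-133 with vector. Since 77.0% of its exon bases lie opposite SMARCB1, and no strand setting is given in the sources used here, even these reads cannot be assigned to it with certainty.

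Among sensors and factors, ERN1 (IRE1; chr17:64039142-64130819, minus strand, GRCh38, GENCODE 29) had the largest ratio of the 35 measured genes. It was at 11.3 TPM in FTC-133 with CRABP1 and 5.66 TPM in FTC-133 with vector, from about 648 and 335 reads, a ratio of 2.00 (1.75 to 2.28). In 8505C it was at 6.41 TPM with CRABP1 and 6.01 TPM with vector, a ratio of 1.07 (0.915 to 1.24). The FTC-133 library with CRABP1 thus stood above the other libraries, which lay between 5.66 and 6.41 TPM. On log2 of TPM plus 1 the FTC-133 ratio was 0.88, short of 2-fold.

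CREB3L2 (chr7:137874979-138002067, minus strand), a membrane-bound transcription factor of the ATF6 type, was at 114 TPM with CRABP1 and 164 TPM with vector in FTC-133, a ratio of 0.697 (0.673 to 0.722). It was the lowest ratio of the 35 measured genes in that line. In 8505C it was at 111 and 103 TPM, with CRABP1 and with vector, a ratio of 1.07 (1.03 to 1.12). XBP1 was at 106 and 99.9 TPM in 8505C (ratio 1.06, 0.993 to 1.14) and at 190 and 167 TPM in FTC-133 (1.14, 1.08 to 1.20). ATF6, its relative ATF6B and EIF2AK3 (PERK) had ratios of 1.04, 1.10 and 1.13 in 8505C and 1.02, 1.08 and 1.04 in FTC-133. Of these only ATF6B in 8505C had an interval above 1 (1.02 to 1.19). All 6 genes of this role were above 0 on the log2 scale in 8505C, and 5 of 6 in FTC-133, where 54.8% and 58.1% of protein-coding genes of 20 or more reads were. With median-ratio scaling ATF6 and EIF2AK3 were below 0 in FTC-133.

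The last role holds genes of translocation and of the vesicle coat. The translocon (SEC61A1, SEC61B, and its partners SSR1, SSR3 and SERP1) passes new proteins into the ER, and the COPII coat proteins SEC24D and SEC31A carry cargo out. Of the 8 genes of this role 3 were above 0 in 8505C and 1 in FTC-133, against 54.8% and 58.1% of protein-coding genes, with median log2 ratios of -0.08 and -0.16. SEC24D was at 45.7 and 51.2 TPM in 8505C (ratio 0.893, 0.844 to 0.945) and at 58.3 and 81.1 TPM in FTC-133 (0.719, 0.686 to 0.753), with CRABP1 and with vector. SEC31A was at 0.951 (0.914 to 0.989) and 0.835 (0.805 to 0.867) of vector, SSR3 at 0.943 (0.912 to 0.975) and 0.855 (0.830 to 0.881), and SEC61A1 at 0.909 (0.876 to 0.943) and 0.957 (0.924 to 0.991), in 8505C and in FTC-133. SSR1 and SERP1 had opposite directions in the lines. SEC61B and WFS1, an ER membrane protein of calcium balance, had intervals that include 1 in both. With median-ratio scaling the FTC-133 intervals of SEC61B and WFS1 lay below 1.

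**Figure D3:**
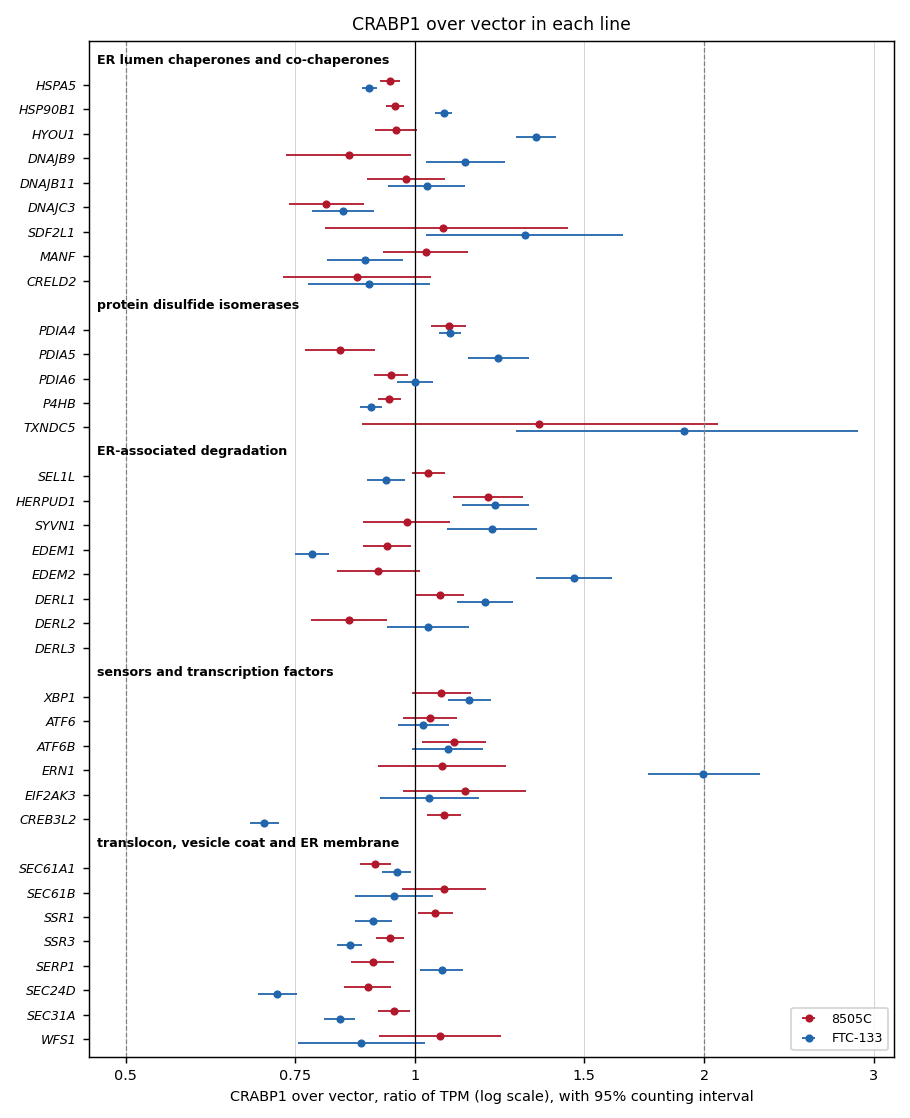
Ratio of TPM, CRABP1 over vector, for the 35 measured genes in 8505C (above) and FTC-133 (below) on a log axis, with 95% counting intervals and dashed lines at 0.5 and 2. In 8505C the ratios lie between 0.809 and 1.35; in FTC-133 ERN1 reaches 2.00 and CREB3L2 is at 0.697.

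Counted by interval, 20 of 35 genes (57.1%) differed between the libraries by more than counting error in 8505C, 6 higher and 14 lower with CRABP1. Of all such protein-coding genes 39.4% did, counted from 20 reads up (23.3% higher and 16.1% lower). In FTC-133 the number was 26 of 35 (74.3%), 14 higher and 12 lower, beside 56.0% (33.9% higher and 22.0% lower). The split was 4 higher and 16 lower in 8505C, and 11 higher and 16 lower in FTC-133, with median-ratio scaling. DERL1 and SSR1 in 8505C, and DNAJB9, SDF2L1 and SERP1 in FTC-133, then no longer had an interval above 1. HYOU1 and EDEM2 in 8505C, and CRELD2, PDIA6, SEC61B and WFS1 in FTC-133, then newly had an interval below 1. These genes had more reads than most, with medians of 1525 and 1416 per gene in 8505C and 1711 and 1582 in FTC-133, against 497 and 490.5 and against 604 and 586 for protein-coding genes, with CRABP1 and with vector. Intervals are narrower with more reads, and the part of depth in these shares was not tested.

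The lines had the same direction for some genes and the opposite one for others. Of 35 genes, 19 had ratios on the same side of 1 in both lines, where 51.8% of 11448 protein-coding genes did. Across the 35 genes the log2 ratios of the lines had a Pearson's r of 0.28 and a Spearman's rho of 0.28, given as a description over genes that are not independent. Intervals lay on the same side of 1 in both lines for 11 genes (31.4%, against 13.5% of protein-coding genes). Higher in both were PDIA4, HERPUD1 and DERL1, and lower in both were HSPA5, DNAJC3, P4HB, EDEM1, SEC61A1, SSR3, SEC24D and SEC31A. With median-ratio scaling PDIA6 joined the genes lower in both, and DERL1 left those higher in both. Intervals lay on opposite sides for 6 genes (17.1%, against 12.0%). The log2 difference between the lines' ratios had an interval that excludes 0 for 21 of 35 genes, against 48.4% of protein-coding genes. The ratio of 8505C was above for 10, against 22.1%, and below for 11, against 26.3%. It was -0.90 (-1.19 to -0.62) for ERN1, -0.68 (-0.87 to -0.48) for EDEM2 and 0.62 (0.54 to 0.70) for CREB3L2, 8505C minus FTC-133. No test over samples can be made of it, since the 4 libraries leave no residual degree of freedom for that term.

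Over both lines, none of these genes passed limma between CRABP1 and vector. The fit held cell line and transfection as terms on log2 of TPM plus 1 over 19513 genes, with 1 residual degree of freedom, so that the lines act as the replicates. Nothing in the labels says that the libraries came from separate cultures, so these p-values measure only the spread between the libraries. By limma, 0 of 35 genes passed (smallest adjusted p = 0.920) and 0 had an unadjusted p under 0.05, whereas 0.00512% of all genes passed, which is CRABP1 itself, and 4.73% had an unadjusted p under 0.05. The estimates nearest to passing were DNAJC3 at a log2 difference of -0.27 (SE 0.104), HERPUD1 at 0.26 (SE 0.102) and SEC24D at -0.31 (SE 0.127), each with an adjusted p = 0.920 by limma. ERN1 was at 0.48 with an SE of 0.271.

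ER genes outside the set were described in 6 lists. These were chosen with earlier results of these libraries known, so they are a description. Beside the counts below, 54.8% of protein-coding genes of 20 or more reads were above 0 in 8505C and 58.1% in FTC-133. Of 24 other ER folding factors 10 were above 0 in 8505C (median log2 ratio -0.03), and of 23 measured in FTC-133 10 were (-0.10), with 0 past 2-fold in either line. ERO1A, the oxidase that recharges disulfide isomerases, was lowest in FTC-133 at a ratio of 0.540 (0.520 to 0.560), with 107 TPM with CRABP1 and 198 TPM with vector. FKBP11, a prolyl isomerase of the ER, was highest in both lines, at 1.33 (1.08 to 1.63) in 8505C and 1.43 (1.23 to 1.66) in FTC-133. Of 23 other degradation genes 14 were above 0 in 8505C and 9 in FTC-133, and the lectin OS9 was lowest in 8505C (0.801, 0.756 to 0.848) and highest in FTC-133 (1.39, 1.32 to 1.47).

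Of 27 other translocation and glycosylation genes, 13 were above 0 in each line, where 54.8% of protein-coding genes in 8505C and 58.1% in FTC-133 were. Of 20 other COPII and cargo genes 7 were above 0 in 8505C and 6 in FTC-133, with the coat GTPase SAR1A lowest in FTC-133 at 0.689 (0.654 to 0.727). Other UPR regulators had medians of 0.05 over 11 genes in 8505C and -0.04 over 12 in FTC-133. Among them CREB3L1, a relative of CREB3L2, was at 66.5 TPM with CRABP1 and 94.0 TPM with vector in FTC-133, a ratio of 0.707 (0.660 to 0.757). CREB3L1 and CREB3L2 were thus lower by similar ratios in that line. Their relative CREB3 went the other way there. It was the highest of this list in FTC-133, at a ratio of 1.32 (1.18 to 1.48). None of the 5 lists had a gene past 2-fold in either line, against 0.741% of protein-coding genes in 8505C and 3.52% in FTC-133.

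The sixth list was the PERK-ATF4-CHOP arm, a name for the genes it holds. RNA levels do not measure PERK activity, and whether PERK acts on these genes here was not tested. Of its 12 genes 11 were above 0 in each line, with median log2 ratios of 0.43 in 8505C and 0.44 in FTC-133, where 54.8% and 58.1% of protein-coding genes were above 0. The counting interval lay above 1 for 9 of the 12 in each line, against 23.3% of protein-coding genes in 8505C and 33.9% in FTC-133. ATF4 and DDIT3 (CHOP), named after their values were seen, had ratios of 1.47 (1.41 to 1.53) and 1.19 (0.924 to 1.53) in 8505C. In FTC-133 they were at 1.49 (1.45 to 1.54) and 1.29 (1.20 to 1.38). The DDIT3 interval in 8505C thus includes 1. Past 2-fold were CHAC1 and SESN2 in 8505C and TRIB3 in FTC-133, against 0.741% and 3.52% in either direction. CHAC1 was at 19.0 TPM with CRABP1 and 1.44 TPM with vector in 8505C, a ratio of 13.2 (7.88 to 24.2). Only about 214 reads lay behind both libraries together, and its ratio in FTC-133 was 1.12 (0.999 to 1.26). SESN2, a stress-induced regulator of mTORC1, was at 15.8 TPM with CRABP1 and 6.42 TPM with vector in 8505C, a ratio of 2.47 (1.97 to 3.09). CEBPB, a transcription factor that pairs with CHOP, was at 220 TPM with CRABP1 and 111 TPM with vector in FTC-133, a ratio of 1.98 (1.85 to 2.13). ATF5 was the lowest in 8505C, at 0.529 (0.410 to 0.677). By limma 0 of the 12 passed over all genes (smallest adjusted p = 0.920) and 7 had an unadjusted p under 0.05, all higher, against 4.73% of all genes. The difference between this arm and the 36 genes was not tested.

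**Figure D4:**
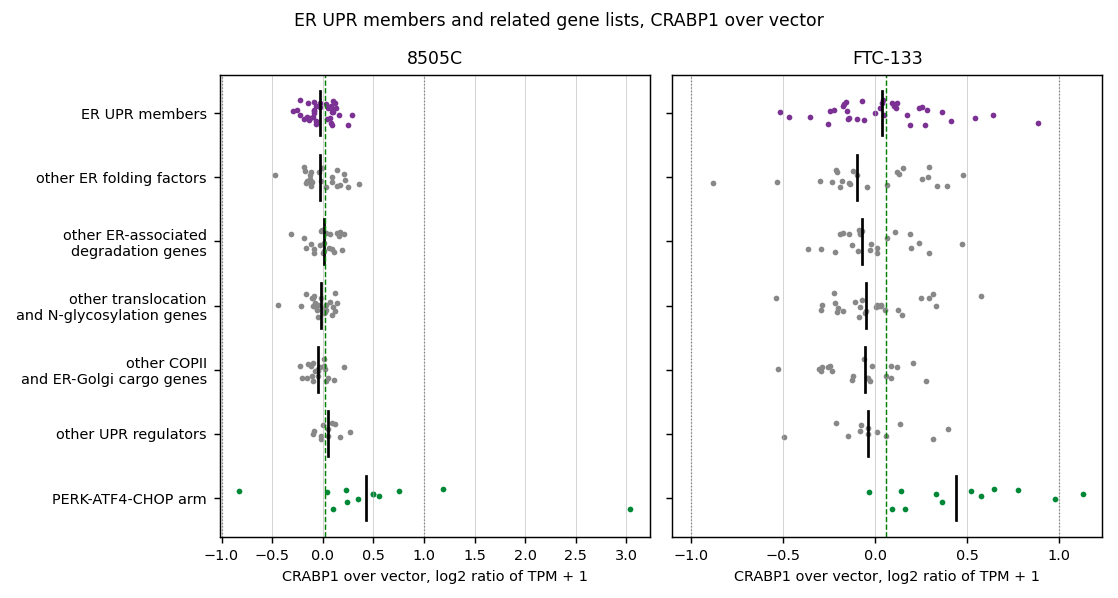
Log2 ratio of TPM plus 1, CRABP1 over vector, in 8505C (left) and FTC-133 (right), 1 point per measured gene, with black bars at list medians, a green dashed line at the median of protein-coding genes of 20 or more reads, and dotted lines at 2-fold. The 36-gene set centres at -0.03 and 0.04 and stays within 2-fold, and the PERK-ATF4-CHOP arm centres at 0.43 and 0.44.

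Between the lines more of these genes differed than between CRABP1 and vector. By limma with transfection as a term, 8 of 35 genes (22.9%) passed between 8505C and FTC-133, 3 higher and 5 lower in 8505C. Over all genes 35.2% passed, 13.0% higher and 22.2% lower, so the share in this set was below that of all genes. All genes tested had a median difference of -0.19, and median-ratio scaling moved the lines by 0.16 against each other. With that scaling the split was 4 higher and 4 lower in the set, and 3172 higher and 3439 lower over all genes in place of 2542 and 4335. Libraries of the lines did not overlap for 26 of 35 genes (74.3%), against 73.4% of all genes. In 8505C 9 were higher, against 28.6% of all genes, and 17 lower, against 44.9%. At an unadjusted p under 0.05 limma gave 13 of 35, against 49.0% of all genes. The median of the set was -0.13, and 0.03 with median-ratio scaling, beside -0.19 and -0.04 over all genes.

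PDIA4 had the largest difference of the 8. Its libraries, given above, were lower in 8505C by a log2 difference of -1.22 (SE 0.0942, adjusted p = 0.00716 by limma), lower in both pairs, at 0.429 of FTC-133 with CRABP1 and 0.430 with vector. DNAJB9 fell by 1.18 on the log2 scale in 8505C (SE 0.146, adjusted p = 0.0142 by limma), at 0.377 of FTC-133 with CRABP1 and 0.498 with vector. EDEM1 fell by 0.86 (SE 0.114, adjusted p = 0.0162) and XBP1 by 0.78 (SE 0.0944, adjusted p = 0.0137) by limma, each lower in both pairs. HSPA5 fell by 0.51 (SE 0.105, adjusted p = 0.0354 by limma), a call lost with median-ratio scaling (adjusted p = 0.0823; 0.0220 to 0.432 over the alternatives). The genes that fell are an isomerase, 2 chaperones, a degradation factor and the transcription factor XBP1.

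The genes that rose in 8505C were SEL1L, DERL1 and ATF6B. SEL1L rose by 0.49 (SE 0.1004, adjusted p = 0.0351 by limma), with 106 and 103 TPM in 8505C and 71.2 and 76.3 TPM in FTC-133, with CRABP1 and with vector. DERL1 rose by 0.54 (SE 0.106, adjusted p = 0.0325 by limma), with 69.1 and 65.1 TPM in 8505C and 49.8 and 42.1 TPM in FTC-133. ATF6B rose by 0.40 (SE 0.0964, adjusted p = 0.0497 by limma), with 76.9 and 70.0 TPM in 8505C and 57.8 and 53.4 TPM in FTC-133. The ATF6B call was lost with a pseudocount of 0.1 (adjusted p = 0.0505; 0.0290 to 0.183 over the alternatives). With no filter on low genes 0 of the 36 passed, and 0 of all 58884 genes. Without the mean-variance trend only PDIA4 and DNAJB9 did, and over all genes 1530 were higher and 3059 lower in place of 2542 and 4335. In each of the 3 genes both 8505C libraries were above both FTC-133 libraries.

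**Figure D5:**
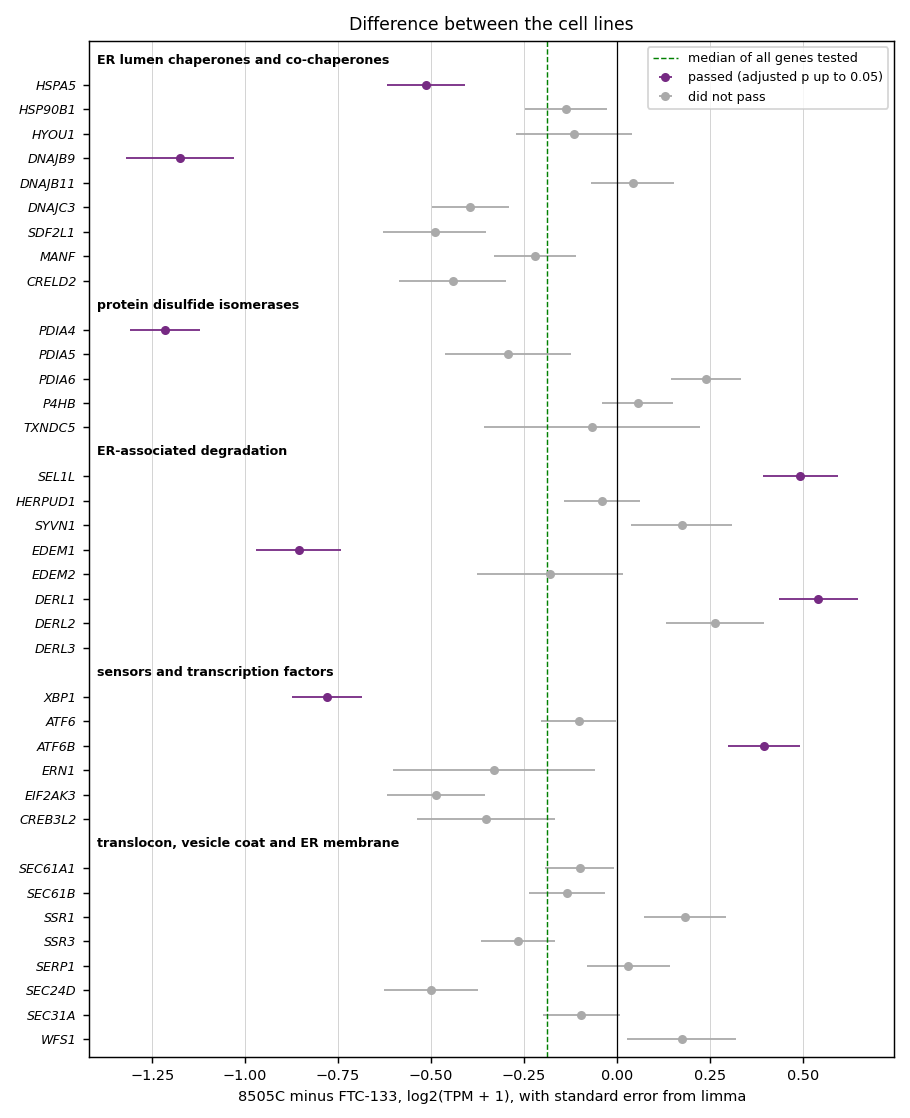
Difference between the lines, 8505C minus FTC-133, on log2 of TPM plus 1 for the 35 measured genes, with limma standard errors; purple points passed at an adjusted p of up to 0.05 and the green dashed line is the median of all genes tested, -0.19. PDIA4 and DNAJB9 lie at -1.22 and -1.18, and DERL1 at 0.54.

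The remaining sensors and folding genes were close between the lines or did not pass. EIF2AK3 was at 14.3 and 12.7 TPM in 8505C and 19.6 and 18.9 TPM in FTC-133, with CRABP1 and with vector (log2 difference -0.49, SE 0.133, adjusted p = 0.0620 by limma). ATF6 was at 47.3 and 45.6 TPM in 8505C and 50.4 and 49.4 TPM in FTC-133. PDIA6 was at 1.15 of FTC-133 with CRABP1 and 1.22 with vector, and P4HB at 1.06 and 1.02. The most abundant of the 5 isomerases by TPM was P4HB in both 8505C libraries and PDIA4 in both FTC-133 libraries.

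Outside the set, genes of the PERK-ATF4-CHOP list and single regulators also differed between the lines. By limma 8 of the 12 PERK-ATF4-CHOP genes fell in 8505C and 0 rose, against 22.2% and 13.0% of all genes, with a median log2 difference of -1.95. DDIT3 (CHOP), the transcription factor at the end of this arm, was at 21.4 and 18.0 TPM in 8505C and 249 and 193 TPM in FTC-133, with CRABP1 and with vector (-3.41, SE 0.101, adjusted p = 0.00336 by limma). Its inducer ATF4, named after its values were seen, was at 495 and 337 TPM in 8505C and 654 and 438 TPM in FTC-133, and did not pass (-0.39, SE 0.0957, adjusted p = 0.0509 by limma). CREB3L1 was below 1 TPM in both 8505C libraries and at 66.5 and 94.0 TPM in FTC-133 (-5.57, SE 0.212, adjusted p = 0.00355 by limma).

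ERO1B, an ER oxidase, rose in 8505C and was at 14.9 and 13.4 TPM in 8505C and 0.990 and 0.206 TPM in FTC-133, with CRABP1 and with vector (3.29, SE 0.268, adjusted p = 0.00768 by limma). CANX (calnexin), a lectin chaperone, was at 639 and 655 TPM in 8505C and 285 and 330 TPM in FTC-133 (1.07, SE 0.105, adjusted p = 0.00988 by limma). By limma 5 of the 24 other folding factors rose and 5 fell in 8505C, and of the 23 other degradation genes 6 rose and 4 fell, where 13.0% of all genes rose and 22.2% fell. Whether these differences belong to the anaplastic and follicular origin of the tumours cannot be told apart from any other difference between 2 single lines.

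Ratios were also set out by the ER stress elements printed above. The 8 with ERSE or ERSE-II had median log2 ratios of -0.07 in 8505C and 0.14 in FTC-133, and the 25 without had -0.03 and 0.00. Of the 8, 3 were above 0 in 8505C and 6 in FTC-133. Of the 25, 12 and 13 were, where 54.8% and 58.1% of protein-coding genes of 20 or more reads were. Between the lines the libraries did not overlap for 5 of the 8, all lower in 8505C, and for 19 of the 25, of which 11 were lower and 8 higher, against 73.4% of all genes (44.9% lower and 28.6% higher). These values are a description, and the elements say nothing of which factor was bound in these cells.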

How the data were processed

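The authors deposited 1 table of TPM values with 1 column for each of the 4 libraries, and the values are used as deposited. GRCh38, featureCounts 2.0.0, Trimmomatic 0.38 and FastQC were used, per the submitters' processing notes. Which aligner, annotation and strand were set is not given in the sources used here. Genes that averaged 1 TPM or more were tested with limma 3.58.1 (R 4.3.3), with a mean-variance trend on log2(TPM + 1), terms for line and transfection, and Benjamini-Hochberg adjustment at 0.05. Fold changes on this scale understate changes of low genes. Reads per gene were recovered from TPM and GENCODE 29 exon lengths. Of values up to 50 reads, 90.5% to 91.6% were within 0.02 of a whole read, and of all values 74.0% to 75.8%, but of the values of these 36 genes only 44.4%, so most reads behind the intervals are approximate. No count test was run. Intervals (SciPy 1.17.1) and floors cover counting error only. All 36 genes are accounted for. From each other list at most the 2 genes furthest up and furthest down in a comparison were named, besides ATF4 and DDIT3. Members and lists were chosen with earlier results of these data known.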

Additional observations from a re-analysis of the deposited data

Results flagged for a closer look

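For 6 genes the counting intervals of the CRABP1 over vector ratio lay on opposite sides of 1 in the 2 lines. The log2 of the 8505C ratio over the FTC-133 ratio was 0.62 for CREB3L2 and 0.21 for SSR1, which were higher with CRABP1 in 8505C and lower in FTC-133. It was -0.55 for PDIA5, -0.40 for DNAJB9, -0.24 for SERP1 and -0.17 for HSP90B1, which were lower with CRABP1 in 8505C and higher in FTC-133. With 1 library per group these differences were not tested over samples. With median-ratio scaling, chosen after seeing the data, the genes on opposite sides were HSP90B1, HYOU1, PDIA5, EDEM2 and CREB3L2.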

How the results depend on the processing

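The FTC-133 median log2 ratio of 0.04 changed sign to -0.023 with median-ratio scaling, to -0.012 with the mitochondrially encoded genes removed, and to -0.063 without the genes that share at least 10% of their exon bases, an alternative chosen after seeing the data. With a 1.5-fold rule the FTC-133 count was 2 in place of 0. Of the 8 genes that passed between the lines, 0 were left with no filter on low genes, where 0 of all 58884 genes passed. Without the mean-variance trend 2 were left, and over all genes 1530 were higher and 3059 lower in place of 2542 and 4335. The cause was not tested. At a mean of at least 5 TPM 12 of 34 genes passed, 3 higher and 9 lower in 8505C, beside 2282 higher and 3410 lower of all 12323 genes. With median-ratio scaling PDIA6 newly passed (adjusted p = 0.0468 by limma). Over single genes and alternatives, 16 results of the line comparison fell short of the threshold and 6 newly passed it, 18 FTC-133 ratios moved, and 0 values beyond counting error or past the threshold changed sign. No paired analysis was possible because each group has 1 library and the labels give no replicate numbers, apart from the pairing by cell line that the limma fit already holds as a term. Counting error limits TXNDC5 and DERL3 most.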
